A study of Mus musculus with 78 samples.

Results

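Aurora kinases, the other subunits of the chromosomal passenger complex, polo kinases and the spindle checkpoint were followed across single blastomeres of the early mouse embryo. The 10 genes, Aurka, Aurkb, Aurkc, Incenp, Birc5, Cdca8, Plk1, Plk4, Bub1b and Mad2l1, were taken by their Entrez identifiers. All 10 were listed in both gene tables, among 15218 genes at the 4-cell and 15342 genes at the 8-cell stage. The embryos came from a cross of mice with the Brainbow-2.1 cassette in the Rosa26 locus, Gt(ROSA)26Sortm1(CAG-Brainbow2.1)Cle, and mice with a tamoxifen-inducible Cre driven by the CAG promoter, Tg(CAG-cre/Esr1*)5Amc. Every embryo was collected at the 2-cell stage, at 46 hpi as the label writes it, exposed to 4-hydroxytamoxifen and cultured in KSOM until the 4-cell or 8-cell stage. No untreated embryos were among the samples, so this exposure was shared by both stages. The labels name 36 4-cell blastomeres from 9 embryos and 31 8-cell blastomeres from 4 embryos. The tables hold 24 and 26 blastomeres, and their column names give no embryo or lineage. The paper limited its analyses to blastomeres with a traced lineage, so the tables need not cover every embryo named in the labels.

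Aurora kinases are serine/threonine kinases of mitosis. Aurora A works at centrosomes and spindle poles. Aurora B is the enzyme of the chromosomal passenger complex, in which Incenp is the scaffold, and Birc5 (survivin) and Cdca8 (borealin) bring the complex to centromeres, where it corrects faulty attachments of chromosomes to the spindle. Aurora C is close to Aurora B, is known mainly from germ cells and early embryos, and can take its place in the complex. Unattached kinetochores signal through Mad2l1 and Bub1b, which hold back the anaphase-promoting complex. Plk1 drives entry into mitosis and spindle assembly. Plk4 controls the duplication of centrioles, organelles that mouse embryos lack during the first divisions.

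Depth differed between blastomeres. The estimated FPKM denominator was 6.87 to 16.9 M fragments at the 4-cell stage (median 13.4) and 2.33 to 21.7 M at the 8-cell stage (median 17.2). The number of genes above FPKM 1 had a stage median of 7155 and 6773. Of the blastomeres, 4 at the 4-cell stage (3009 to 5336 genes) and 3 at the 8-cell stage (3548 to 4963 genes) had fewer than 0.75 of the stage median and are called gene-poor below. Of the 12 oocyte and blastomere markers, 11 and 12 were listed, of which 9 and 6 had a median above FPKM 1. Dppa3 and Sall4 were above FPKM 1 in all 24 and all 26 blastomeres, while Oosp1 had a median of 0 in both stages and Gdf9 and Ooep a median of 0 at the 8-cell stage. Of the 10 granulosa cell markers, 4 were listed in each stage, with a summed level of 9.03 to 104 FPKM at the 4-cell and 3.67 to 111 FPKM at the 8-cell stage. This sum was nearly all Amhr2, which was above FPKM 1 in every blastomere, while Fshr and Foxl2 were not listed. Leukocyte markers summed to at most 13.4 and 39.5 FPKM and sperm markers to at most 8.79 and 23.3 FPKM, each with a median of 0. The part of these markers in the results was not tested.

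Sequence likeness bears on the comparison of the kinases, since the authors kept only uniquely aligned reads. On GRCm38.p6, Aurkb lies at chr11:69045624-69051664 on the plus strand, Aurkc at chr7:6995347-7003091 on the plus strand and Aurka at chr2:172356190-172370886 on the minus strand. None of the 10 genes shares exon bases with another annotated gene. The coding sequences of Aurkb and Aurkc were identical at 611 of 809 aligned bases (75.5%), against 70.8% for Aurka and Aurkb and 72.6% for Aurka and Aurkc. The longest run that Aurkb and Aurkc share was 25 bases, so that no stretch of 100 bases was common to both. A coding stretch that contains this run, chr11:69048744-69048803 in Aurkb and chr7:6999992-7000051 in Aurkc, is shown because it is where the kinases are most alike. Capitals mark the 6 differences among its 60 bases.
Aurkb: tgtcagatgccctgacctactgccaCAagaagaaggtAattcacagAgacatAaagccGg
Aurkc: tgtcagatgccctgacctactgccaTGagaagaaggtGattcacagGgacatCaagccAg

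Near copies were found for several of the genes, and those of Aurkc held the most stretches identical over a read length. The longest copy of Aurkc, the predicted gene Gm12463 at chr4:44752148-44753137 matched the Aurkc transcript at 98.89% of 990 bases, with an identical run of 716 bases. Of the 1339 windows of 100 bases in the Aurkc transcript, 670 (50%) occurred exactly in a near copy. The share was 0 for Aurka, Aurkb and Mad2l1 and at most 2.38% for Birc5, Plk1 and Plk4. For Incenp, Cdca8 and Bub1b no near copy was found, so their windows had nothing to match. Exact repeats outside the near copies were not searched. Reads from windows with an exact match can have more than 1 place to align. The deposited Aurkc values may therefore lie below the true level, by an amount that was not tested. Gm12463 itself was not listed in either table. The stretches below, chr7:7002886-7002945 of Aurkc and chr4:44752295-44752354 of Gm12463 (minus strand), hold 5 of the differences, in capitals, by which a read can tell the copies apart.
Aurkc: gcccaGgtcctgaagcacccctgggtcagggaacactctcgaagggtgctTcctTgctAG
Gm12463: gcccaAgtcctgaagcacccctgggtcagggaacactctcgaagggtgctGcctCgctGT

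Aurka was the most abundant of the 10 genes at both stages by median FPKM, which is per length of transcript. It exceeded Cdca8, the next gene, in 17 of 24 4-cell blastomeres, where the quartile ranges overlapped, and in 24 of 26 8-cell blastomeres. At the 4-cell stage it ranged from 218 through a median of 374 to 554 FPKM, and at the 8-cell stage from 59.6 through 299 to 454 FPKM. It was above FPKM 1 in all 24 and all 26 blastomeres, and its median stood above 98.7% and 98.2% of the genes listed. The 8-cell values lay below the 4-cell median in 21 of 26 blastomeres, although 23 of 26 fell inside the 4-cell range. Aurka also varied little from cell to cell. Its coefficient of variation was 24.3% in 4-cell and 28.2% in 8-cell blastomeres, against medians of 81.4% and 78.7% over all genes with a stage median above FPKM 1. Among genes with a median from 0.5 to 2 times that of Aurka, 36 of 444 (8.11%) varied as little at the 4-cell and 144 of 536 (26.9%) at the 8-cell stage. Aurka exceeded the sum of Aurkb and Aurkc in all 24 4-cell and in 25 of 26 8-cell blastomeres. Its share of the 3 Aurora kinases had a median of 68.6% (51.7% to 100.0%) at the 4-cell and 79.1% (45.1% to 100%) at the 8-cell stage.

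Aurkb was the member with the largest stage difference. At the 4-cell stage it ranged from 0.0530 through a median of 72.8 to 153 FPKM, and at the 8-cell stage from 0 through 26.5 to 78.4 FPKM. All but 1 of the 26 8-cell blastomeres lay below the 4-cell median, and 20 lay below the lower quartile of the 4-cell values. The ranges of the stages overlapped. On the log2(FPKM+1) scale the median was 6.21 in 4-cell and 4.78 in 8-cell blastomeres, a difference of -1.42, or a 2.68-fold lower level. Aurkb was thus 1 of 10 members at least 1 log2 unit lower at the 8-cell stage, where 18.5% of all 7131 genes compared were that much lower. No member was that much higher, against 9.87% of all genes. The ranges between the lower and upper quartile did not overlap for Aurkb, with the 8-cell stage lower, which was so for 4.19% of all genes. They did not overlap with the 8-cell stage higher for 0 of 10 members and for 2.05% of all genes. Each stage is 1 sample of blastomeres that share embryos, so none of these differences was tested.

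Some 8-cell blastomeres held Aurkb at or near 0. Among the blastomeres above FPKM 1 its median was still lower at the 8-cell stage, 33.7 against 73.3 FPKM. At the 8-cell stage 20 of 26 blastomeres (76.9%, exact 95% interval 56.4% to 91.03%, counting error only) were above FPKM 1, against 23 of 24 (95.8%, 78.9% to 99.9%) at the 4-cell stage. These intervals treat blastomeres as independent, although they share embryos, and do not compare the stages. Of the other 6 8-cell blastomeres, 5 had Aurkb listed at 0 and 1 at 0.0552 FPKM. At these depths 3 fragments of Aurkb correspond to 0.0703 to 0.654 FPKM. Of the 6, 1 was gene-poor and 2 more, with 5106 and 5391 genes, were among the 8-cell blastomeres with the fewest genes. In the other 3, with 6513 to 6854 genes each, Aurkb was listed at 0 while Aurka stood at 246 to 454 FPKM. As a background, 248 of 2027 genes (12.2%) with an 8-cell median from 0.5 to 2 times that of Aurkb were at or below FPKM 1 in as many blastomeres.

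Aurkc had a smaller stage difference, and its spread was near the median of all genes. It ranged from 0 through a median of 66.05 to 229 FPKM in 4-cell and from 0 through 47.0 to 147 FPKM in 8-cell blastomeres. The difference of the log2 medians was -0.46, and all 26 8-cell values lay inside the 4-cell range. The coefficient of variation of Aurkc was 79.1% and 81.2%, against medians of 81.4% and 78.7% over all genes with a stage median above FPKM 1. That of Aurkb was 46.3% and 84.7%. The Aurkc median stood above 90.7% and 88.4% of the genes listed, and its spread was not compared with genes of like level. Aurkc was above FPKM 1 in 22 of 24 (91.7%, 73.0% to 99.0%) and 22 of 26 (84.6%, 65.1% to 95.6%) blastomeres, again with counting error only. Both 4-cell blastomeres without it were gene-poor, and so were 2 of the 4 at the 8-cell stage. The difference of mean log2 values was -0.97. Leaving out 1 blastomere moved the stage difference of Aurkc between -0.76 and -0.16, and leaving out the gene-poor ones gave -0.72. Without the 6 8-cell blastomeres with the fewest genes it was -0.12.

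**Figure D1:**
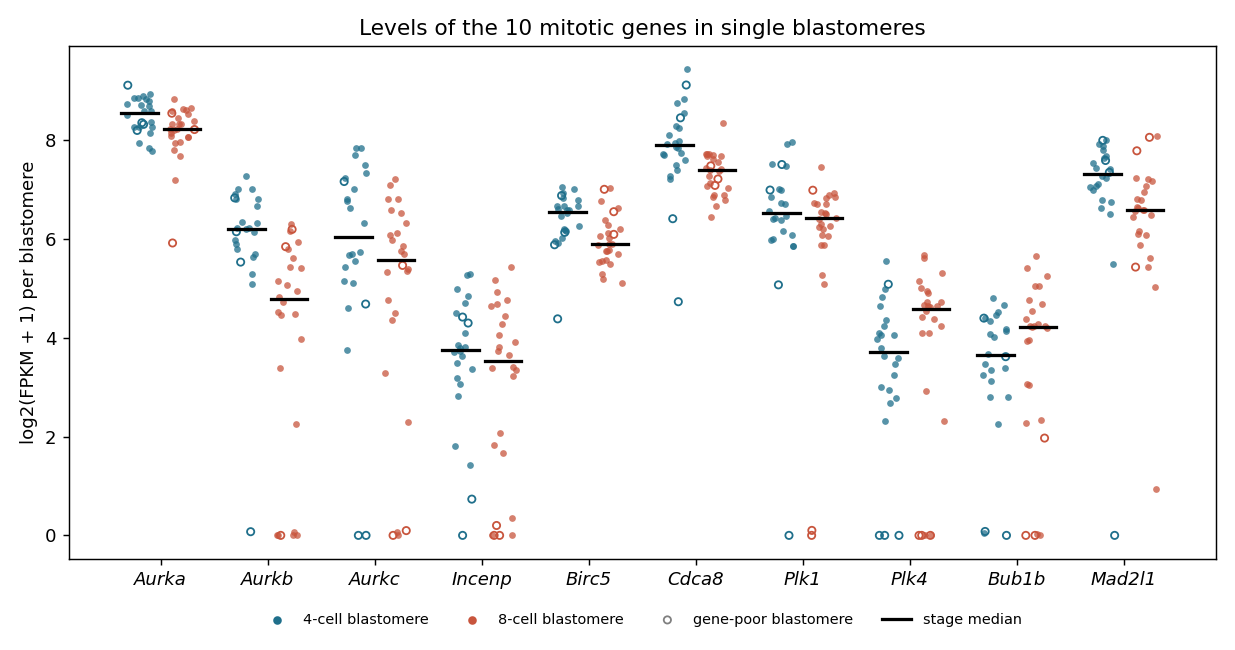
Level of the 10 genes in each blastomere on the log2(FPKM+1) scale (vertical axis), for 24 4-cell (blue) and 26 8-cell (red) blastomeres, with open circles for gene-poor blastomeres and black lines for stage medians. Aurka has the highest medians at both stages, and the 8-cell values of Aurkb lie lower, with 6 of 26 at or near 0.

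Compared within the same blastomere, Aurkb and Aurkc had a median difference near 0 at the 4-cell stage. Aurkc was the higher in 10 of 24 blastomeres and Aurkb in 14, and the median of log2 Aurkc minus log2 Aurkb was -0.10. The 2 genes differed by a factor of 2 or more in 13 blastomeres, in 7 of them with Aurkc ahead. The share of Aurkc in their sum had a median of 47.7% and ran from 0% to 76.7%. Among blastomeres that were not gene-poor it still ran from 10.2% to 76.7%, so that the balance of the kinases differed widely between cells of the same stage.

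In 8-cell blastomeres the balance stood more on the side of Aurkc. Aurkc was higher in 15 of 26 blastomeres and Aurkb in 9, and 2 had both listed at 0. The median difference was 0.73 on the log2 scale, and over the 23 blastomeres with a sum above FPKM 1 it was 1.27, with a median Aurkc share of 71.2%. Without gene-poor blastomeres the count was 15 of 23 and the median difference 1.27. The 5 blastomeres in columns named NA, all with Aurkc higher, weighed in this count: without them Aurkc was higher in 10 of 21 (47.6%) and the median difference was 0.00. This 0.00 is the value of the 2 blastomeres with both kinases listed at 0, so it does not show equal levels. The median over sums above FPKM 1 was not taken without the columns named NA. The difference between the stages was not tested, since each is 1 sample.

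Some blastomeres held only 1 of the kinases. Of the 8-cell blastomeres 19 had both above FPKM 1, 3 had Aurkc alone, 1 had Aurkb alone and 3 had neither. The 3 with Aurkc alone held it at 57.02, 50.7 and 21.6 FPKM, and none of them was gene-poor. In the 1 with Aurkb alone, at 72.4 FPKM beside 0.0693 FPKM of Aurkc, only 4263 genes passed FPKM 1, and it was also the only blastomere in which the sum of Aurkb and Aurkc exceeded Aurka. At the 4-cell stage 22 blastomeres had both and 1 had Aurkb alone, at 45.3 FPKM. The remaining 4-cell blastomere, with neither, had the fewest genes of all, 3009. The summed level of Aurkb and Aurkc had a median of 146 FPKM at the 4-cell and 74.6 FPKM at the 8-cell stage.

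The comparison of Aurkb with Aurkc depends on length. In 2 blastomeres Aurkc had a value between 0 and 1, and if each was a single fragment, the length behind the deposited FPKM was 1149 bases, while the exons of the Aurkc transcripts add up to 1438. With the longer length the Aurkc median was 52.8 FPKM at the 4-cell and 37.5 FPKM at the 8-cell stage, Aurkc was higher in 9 of 24 and 15 of 26 blastomeres, and the median log2 difference was -0.40 and 0.41. The near copies described above may lower the Aurkc values, and their part was not tested.

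**Figure D2:**
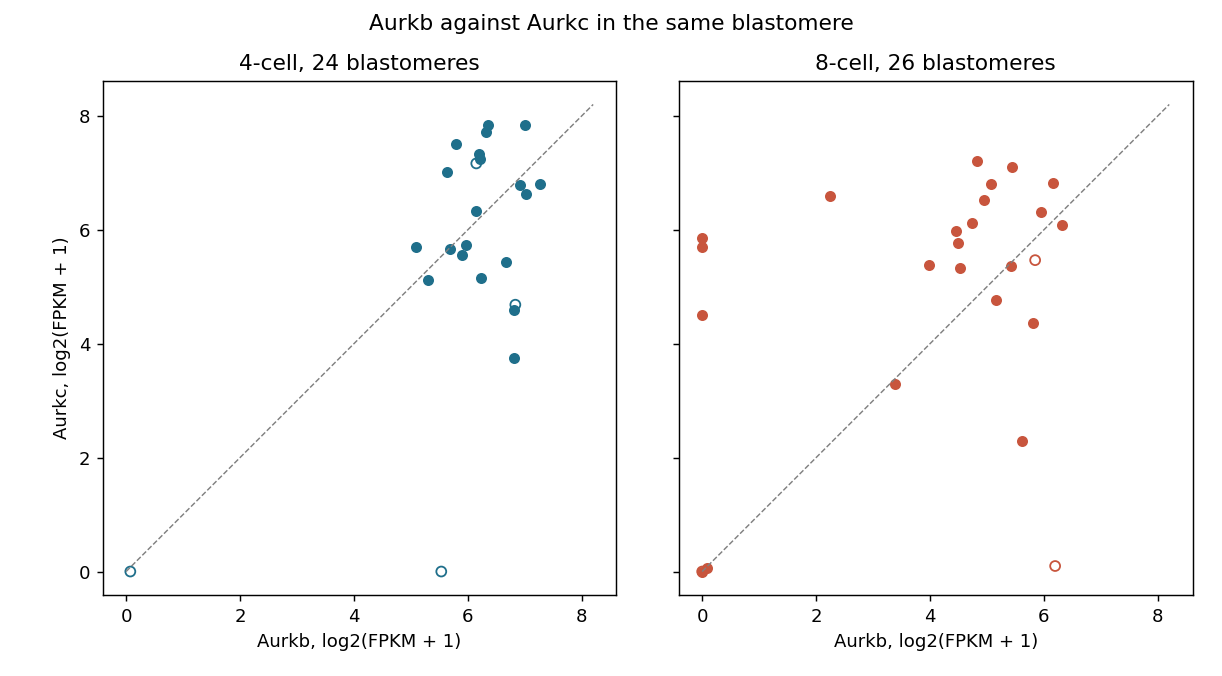
Aurkb (horizontal axis) against Aurkc (vertical axis) in each of 24 4-cell and 26 8-cell blastomeres, both as log2(FPKM+1), with open circles for gene-poor blastomeres and a dashed line of equal level. At the 4-cell stage 13 of 24 points lie a factor of 2 or more from the line, and at the 8-cell stage 3 filled points stand at 0 for Aurkb with Aurkc between 21.6 and 57.02 FPKM.

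Among the other passenger complex subunits, the targeting subunits were far more abundant per length than the scaffold. Cdca8 ranged from 25.6 through 237 to 693 FPKM at the 4-cell and from 86.1 through 168 to 324 FPKM at the 8-cell stage. Birc5 ranged from 19.9 through 93.1 to 133 FPKM and from 33.6 through 58.8 to 131 FPKM. Both were above FPKM 1 in every blastomere. Incenp ranged from 0 through 12.5 to 38.0 FPKM and from 0 through 10.6 to 42.2 FPKM, and was above FPKM 1 in 22 of 24 and 20 of 26 blastomeres. Cdca8 exceeded Birc5, and Birc5 exceeded Incenp, in all 24 and all 26 blastomeres. Within a blastomere the median ratio of Cdca8 to Birc5 was 3.004 in 4-cell and 2.64 in 8-cell blastomeres, and that of Birc5 to Incenp was 5.85 and 3.89 where Incenp passed FPKM 1.

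All 3 subunits had a lower median at the 8-cell stage. The log2 difference was -0.65 for Birc5, -0.50 for Cdca8 and -0.22 for Incenp, none past 1. With mean log2 values it was -0.41, -0.54 and -0.57. For Incenp, leaving out 1 blastomere moved the difference of medians between -0.35 and -0.10, and leaving out the gene-poor ones gave -0.02. Of the 26 8-cell blastomeres 25 lay below the 4-cell median of Cdca8 and 22 below that of Birc5, against 15 for Incenp. The difference of Incenp turned to 0.01 without the 6 8-cell blastomeres with the fewest genes, a setting added after the data were seen.

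Of the polo kinases, Plk1 had nearly equal medians and Plk4 a higher 8-cell median. Plk1 ranged from 0 through 90.7 to 250.01 FPKM at the 4-cell and from 0 through 84.8 to 175 FPKM at the 8-cell stage, a log2 difference of -0.10. It was above FPKM 1 in 23 of 24 and 24 of 26 blastomeres, and the 3 exceptions were all gene-poor. The difference of mean log2 values of Plk1 was -0.45. Plk4 ranged from 0 through 12.1 to 45.9 FPKM at the 4-cell and from 0 through 23.1 to 50.4 FPKM in 8-cell blastomeres. The log2 difference of Plk4 was 0.87, below the threshold, with 16 of 26 8-cell values above the upper quartile of the 4-cell values. For Plk4 the difference of mean log2 values was only 0.29. Plk4 was at or below FPKM 1 in 5 of 26 8-cell blastomeres and in 3 of 24 at the 4-cell stage, and their part in this was not tested. Plk1 exceeded Plk4 in 23 of 24 and 25 of 26 blastomeres.

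For the checkpoint genes the stage medians differed in opposite directions, neither past the fold. Mad2l1 ranged from 0 through 159 to 257 FPKM at the 4-cell and from 0.908 through 94.8 to 270.2 FPKM at the 8-cell stage, a log2 difference of -0.74, with 23 of 26 8-cell values below the 4-cell median. Bub1b ranged from 0 through 11.6 to 27.03 FPKM and from 0 through 17.7 to 49.6 FPKM, a log2 difference of 0.57, with 5 of 26 8-cell values above the highest 4-cell value. For Bub1b the difference of mean log2 values was 0.16. Mad2l1 exceeded Bub1b in 23 of 24 and 24 of 26 blastomeres, by a median ratio of 11.6 in 4-cell and 5.51 in 8-cell blastomeres where Bub1b passed FPKM 1.

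In order of their medians, the 4-cell genes ran Aurka, Cdca8, Mad2l1, Birc5, Plk1, Aurkb, Aurkc, Incenp, Plk4 and Bub1b. Only at the steps from Mad2l1 to Birc5 and from Aurkc to Incenp were the quartile ranges of neighbouring genes apart, with the first gene higher in 21 and 22 of 24 blastomeres. At the 8-cell stage the order was Aurka, Cdca8, Mad2l1, Plk1, Birc5, Aurkc, Aurkb, Plk4, Bub1b and Incenp. There the quartile ranges were apart from Aurka to Cdca8 (24 of 26 blastomeres) and from Cdca8 to Mad2l1 (22 of 26). The other neighbours did not differ beyond their spread. In all, 8 of the 10 genes had a lower and 2 a higher 8-cell median, with a median difference of -0.39 over the 10 genes. Over all 7131 genes the median difference was -0.11, and 55.4% were lower. No gene of the 7131 (0%), and so none of the 10, had stage ranges that did not overlap.

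**Figure D3:**
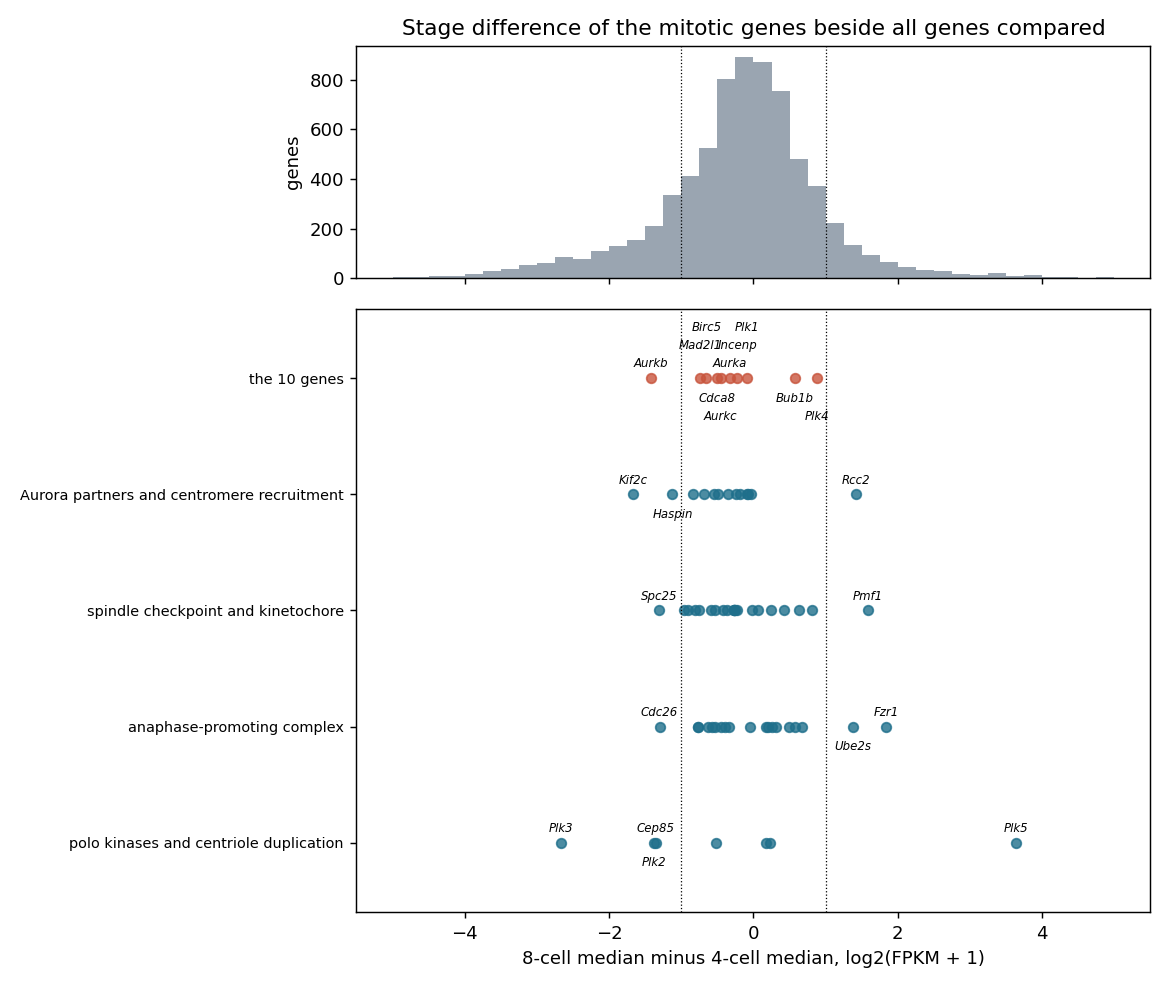
Difference of the 8-cell and 4-cell medians on the log2(FPKM+1) scale (horizontal axis). The upper panel counts all 7131 genes per bin of the difference, with values beyond 5 set to 5, and the lower panel marks each of the 10 genes (red) and of 4 lists of related genes (blue), with dotted lines at 1 unit in either direction. Aurkb alone of the 10 genes lies beyond a dotted line.

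The genes around the members were set against the same fold, which 18.5% of all genes passed as lower and 9.87% as higher. Of 13 Aurora partners and centromere recruitment factors compared, 2 were lower and 1 higher, shares near those of all genes, with a median difference of -0.36. In all, 12 of the 13 had a lower 8-cell median, beside 55.4% of all genes. Kif2c, a microtubule-depolymerising kinesin of centromeres, had medians of 91.1 and 28.1 FPKM (-1.66 on the log2 scale), and Haspin, the histone kinase whose mark recruits the passenger complex, 9.49 and 3.83 FPKM (-1.12). Rcc2, which takes part in placing the complex, was at 8.61 and 24.6 FPKM (1.41). The most abundant were Tacc3, a centrosomal partner of Aurora A, at 135 and 95.7 FPKM, Kif20a at 112 and 98.3 FPKM, and Tpx2, the activator of Aurora A, at 88.8 and 54.9 FPKM.

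Of 21 other spindle checkpoint and kinetochore genes, 1 was lower and 1 higher, beside the 18.5% and 9.87% of all genes, with a median difference of -0.27. These were Spc25 of the Ndc80 complex, at 167 and 66.7 FPKM (-1.30), and Pmf1 of the Mis12 complex, at 16.5 and 51.3 FPKM (1.58). Mad2l1bp, a Mad2-binding protein that helps to silence the checkpoint, was the most abundant at 737 and 379 FPKM, followed by Trip13, the ATPase that remodels Mad2, at 181 and 213 FPKM. Of 19 genes of the anaphase-promoting complex and its partners, 1 was lower and 2 were higher, beside the same shares of all genes, with a median difference of -0.05. Cdc26, a small subunit, was at 24.5 and 9.34 FPKM (-1.30). The ubiquitin-conjugating enzyme Ube2s was at 30.7 and 81.6 FPKM (1.38) and Fzr1, the activator of late mitosis, at 2.10 and 7.32 FPKM (1.83). Cdc20, the activator that the checkpoint holds back, was at 882 and 590.0 FPKM, Ube2c at 611 and 481 FPKM and Anapc5 at 162 and 229 FPKM.

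Levels in the list of Plk4 were mostly low. Of 14 polo kinase and centriole genes only 7 were listed in both tables with a median above FPKM 1 in at least 1 stage, with 3 lower and 1 higher, beside 18.5% and 9.87% of all genes, and a median difference of -0.52. Cep63, a centrosomal protein, was at 38.5 and 43.5 FPKM and Pcnt at 3.96 and 4.89 FPKM. Beside them Plk4 was at 12.1 and 23.1 FPKM. Plk2 was at 2.92 and 0.0334 FPKM (-1.38), Plk3 at 5.37 and 0 FPKM (-2.67), and Cep85 at 1.61 and 0 FPKM (-1.35). Plk5 was at 0 and 11.4 FPKM (3.63). The fitted sizes of genes at 0 depend on the pseudocount of 1.

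Blastomeres with few genes differed from the rest in several members at once. The 6 8-cell blastomeres with the fewest genes had 3548 to 5391 genes above FPKM 1, and the other 20 had 5884 to 8078. Plk4 was 0 to 6.63 FPKM in the 6, with 5 at or below FPKM 1, and 4.01 to 50.4 FPKM in the 20, of which 19 exceeded all 6. Among 3005 genes with an 8-cell median above FPKM 20, 0.732% were split to that degree in this direction. Aurkc was at or below FPKM 1 in 4 of the 6 and in none of the 20, a split found in 1.06% of the 3005 genes. Bub1b, whose 8-cell median of 17.7 FPKM lies below those of the 3005 genes, was split in the same way. The 6 were chosen for few genes above FPKM 1, so values at or near 0 are more frequent in them. Aurkb was at or below FPKM 1 in 3 of the 6 and in 3 of the 20, Incenp in 4 of the 6 and 2 of the 20, and Plk1 in 2 of the 6 and 0 of the 20. Birc5 ran the other way, at 67.4 to 131 FPKM in the 6 and 33.6 to 82.7 FPKM in the 20, and 5 of the 6 exceeded every other blastomere, as did 4.79% of the 3005 genes. Mad2l1 had a median of 171 FPKM in the 6 and 94.5 FPKM in the 20. These 6 are neighbouring columns of the table (S53 to S58), whose names give no embryo, and whether they share an embryo, a lineage or a stage of the cell cycle was not tested.

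**Figure D4:**
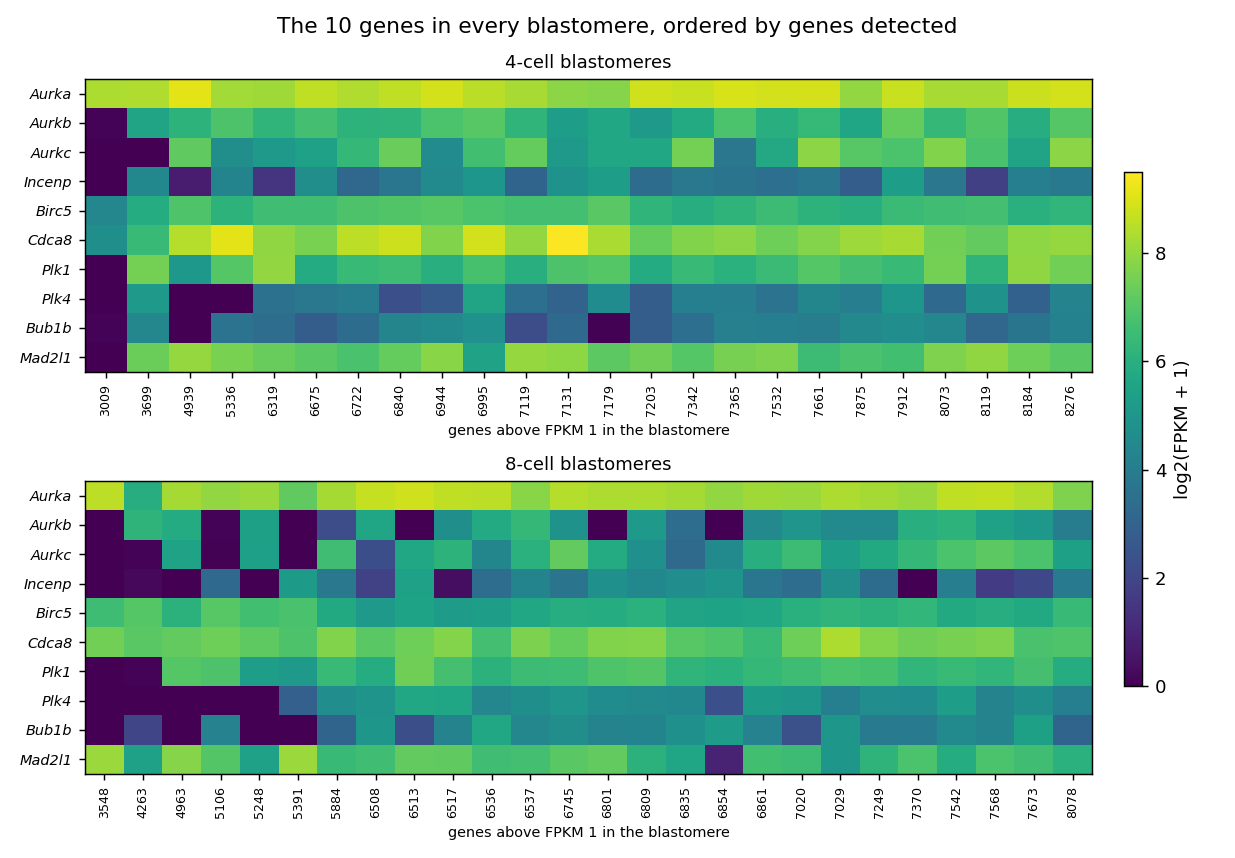
Level of the 10 genes (rows) in each blastomere (columns) as log2(FPKM+1), with blastomeres of each stage ordered from left to right by the number of genes above FPKM 1, which is printed under each column. Dark cells, at or near 0, gather at the left for Aurkc and Plk4, and for Bub1b at the 8-cell stage. Those of Aurkb and Incenp at the 8-cell stage are also found among blastomeres with more genes. So is 1 of Bub1b at the 4-cell stage, in a blastomere with 7179 genes.

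Cell-to-cell correlation among the members was weak. At the 4-cell stage the median Spearman rho over the 45 pairs was 0.15 (-0.40 to 0.44, n = 24 blastomeres), with 27 pairs above 0, against a median of 0.05, and 57.6% of pairs above 0, over all pairs of the 6878 genes above FPKM 1 in at least 50% of blastomeres. Without the gene-poor blastomeres it was 0.07, and leaving out the blastomere with 3009 genes (column S18) alone gave 0.04. At the 8-cell stage the median was 0.12 (-0.66 to 0.63, n = 26), with 30 pairs above 0, against 0.02, and 53.3% above 0, over all pairs of 6325 genes. Without the gene-poor blastomeres it was 0.057, with 25 pairs above 0. Pearson correlation gave 0.48 and 0.12, and the 4-cell value fell to -0.02 without gene-poor blastomeres. The blastomeres share embryos, and members share the depth of a library. The correlation of the members with the number of genes above FPKM 1 had a median of 0.22 and 0.13, against 0.19 and 0.14 over all genes. It was highest for Aurkc, at 0.52 and 0.56, against 0.26 and 0.11 for Aurkb, and the part of this in the balance of the kinases was not tested.

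Aurkb and Aurkc were only weakly related. Their rho was 0.26 at the 4-cell stage, or 0.14 without gene-poor blastomeres, and 0.29 at the 8-cell stage, or 0.35. It was 0.39 at the 8-cell stage without the blastomere in column S58, which holds Aurkb alone. The partners of Aurkb in the passenger complex did not follow it closely, with rho from 0.21 to 0.27 for Incenp, Birc5 and Cdca8 at the 4-cell and -0.48 to 0.03 in 8-cell blastomeres. The lowest of these was Incenp, at -0.56 without gene-poor blastomeres.

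The widest 8-cell values centred on Birc5 and Plk4. Birc5 had a rho of -0.66 with Plk4, -0.58 with Bub1b and -0.55 with Aurka, and Aurkc had a rho of 0.63 with Plk4. Without the 6 blastomeres described above (n = 20) the values were -0.38, -0.31, -0.44 and 0.42. Cdca8 and Plk1 had a rho of 0.48, and 0.59 without the 6. At the 4-cell stage the highest were Aurkb with Bub1b at 0.44 and Birc5 with Cdca8 at 0.43, and the lowest was Plk4 with Mad2l1 at -0.40. Of the same pairs at the 8-cell stage, Aurkb with Bub1b was at 0.17, Birc5 with Cdca8 at 0.12 and Plk4 with Mad2l1 at 0.13.

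**Figure D5:**
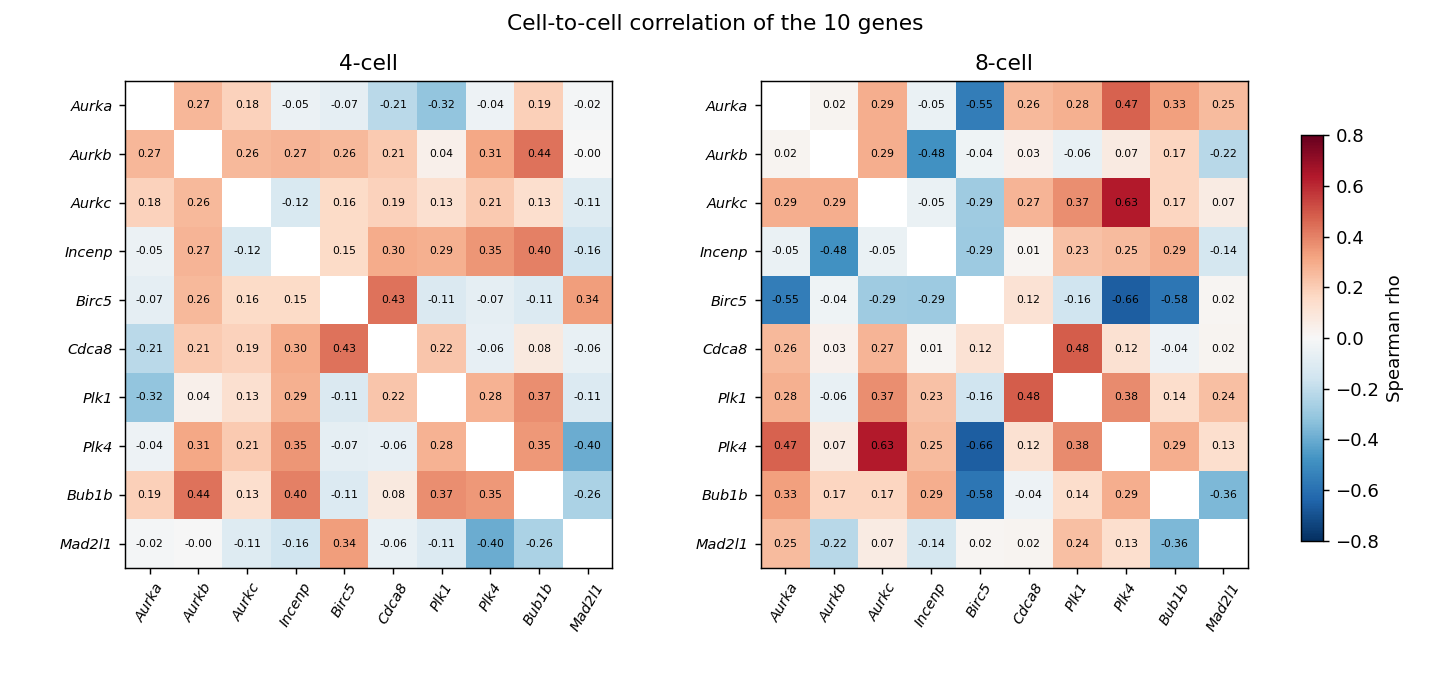
Spearman rho of each pair of the 10 genes over 24 4-cell (left) and 26 8-cell (right) blastomeres, from blue (negative) to red (positive). Most cells are pale, and the strongest colours at the 8-cell stage are those of Birc5 with Plk4 (-0.66) and Aurkc with Plk4 (0.63).

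The genes most like Aurkb and Aurkc over the blastomeres of a stage were not mitotic genes of the lists, and differed between stages. Among 6877 genes at the 4-cell stage the closest to Aurkb were Mpg, a DNA glycosylase (rho 0.72), Gtf2e2, a subunit of general transcription factor TFIIE (0.70), and P3h1, a collagen prolyl hydroxylase (0.68). At the 8-cell stage these genes had a rho of -0.34, -0.06 and 0.20 with Aurkb. Among 6324 genes at the 8-cell stage the closest were Mcm3, a subunit of the replicative helicase (0.68), Denr (0.65) and Vti1b (0.65), which had -0.31, 0.05 and 0.16 at the 4-cell stage. For Aurkc they were Bend4 (0.77), Ddah1 (0.75) and Hsf2, a heat shock transcription factor (0.74), at the 4-cell stage, with -0.27, -0.16 and -0.12 at the 8-cell stage. The closest 8-cell genes were Cdipt, the phosphatidylinositol synthase (0.74), Hrob (0.74) and Eipr1 (0.73), with 0.54, 0.20 and 0.40 at the 4-cell stage. With so many genes searched over 24 or 26 blastomeres, these are the extremes of many values.

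The start sites of the genes shared a short sequence in part. RefSeq windows of 250 bases before to 50 bases after the start (GRCm38.p6) were searched for 7 of the 10 genes. The motif TTTGAA, the core of the cell cycle genes homology region known from promoters of mitotic genes, was searched on both strands. It was found in 3 of the 7, Aurka, Plk1 and Bub1b, and in 17.9% of all 32851 windows. In each of the 3 it was on the strand of the gene, 31 to 41 bases after the start that defines the window, which for Aurka and Bub1b lies inside the outermost gene bounds. It is shown in capitals within 30 bases, at chr2:172370521-172370550 (minus strand) for Aurka, chr7:122159453-122159482 (plus) for Plk1 and chr2:118598231-118598260 (plus) for Bub1b.
Aurka: aaaaggagaaccTTTGAAttgtaacggctg
Plk1: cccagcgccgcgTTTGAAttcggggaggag
Bub1b: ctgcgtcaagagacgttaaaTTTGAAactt

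The same 3 windows held the CCAAT box, searched on both strands, which was found in 4 of the 7 genes, the other being Aurkc, and in 37.4% of all windows. A match of these letters is a description of the window and no measure of binding.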

How the data were processed

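Single blastomeres of mouse 4-cell and 8-cell embryos were sequenced with Smart-seq2 as paired reads. Per the labels and the study's methods, the authors aligned reads to mm10 with STAR 2.5.1b, kept unique alignments, counted them on Refseq genes with HTSeq and deposited FPKM (fragment counts scaled to transcript length and library total). The gene lengths and totals behind the FPKM are not given in the sources used here.

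No column name of the gene tables points to 1 sample in the labels, and 5 of the 8-cell columns are named NA. Columns were not assigned to samples by their order or values. Each stage was therefore treated as 1 sample, and no test between stages or lineages was made. The transposon tables were not used here, which leaves 50 of their columns without a use. Samples of 5-cell and 6-cell embryos were left out, as not analysed here.

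Entrez identifiers were matched to RefSeq on GRCm38.p6, the assembly behind mm10, for 15200 and 15320 genes. Values were taken as log2(FPKM+1). Stage medians were called apart at a difference of 1 over the 7131 genes listed in both tables whose median passed FPKM 1 in a stage. Spearman correlation was computed over the blastomeres of a stage. Blastomeres with fewer than 0.75 of the stage median of genes above FPKM 1 were called gene-poor. The fragments behind each FPKM were estimated from the lowest values of genes with 1 curated RefSeq transcript. The most frequent product of FPKM and exon length among these values was taken as 1 fragment, so the estimate rests on RefSeq lengths. This estimate and the stage difference were checked on simulated data. Near copies of each gene were searched with BLAST+ 2.17.0, at 300 aligned bases and 80% identity or more. RefSeq promoter windows were searched for 7 of the genes, and 1 further window is not reported here. Statistics used Python 3.11.15 with SciPy 1.17.1.

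The 10 genes and the 4 lists of related genes were chosen with earlier results of these data known. The genes named are the 10, from each list the 3 with the highest mean of the stage medians and those past the fold, and for Aurkb and Aurkc the 3 genes with the highest correlation in each stage. The alternatives were thresholds of 0.1 and 5, a pseudocount of 0.1, 2 other scalings, means, Pearson correlation and sets of blastomeres left out. The length of Aurkc and the 6 8-cell blastomeres with the fewest genes were added after the data were seen.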

Additional observations from a re-analysis of the deposited data

How the results depend on the processing

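No paired analysis was possible because the names of gene table columns give no replicate number, embryo or lineage. The difference of Incenp turned from -0.22 to 0.01 without the 6 8-cell blastomeres with the fewest genes, and no other member changed sign. Aurkb was the only member past the fold under each of the settings run, with a difference of -2.13 (means) to -1.13 (columns named NA dropped). Leaving out single blastomeres gave -1.47 to -1.38. The share of all genes lower at the 8-cell stage was 12.2% with means, and 9.67% were lower and 5.17% higher when every gene listed in both tables was counted. The scalings moved the median of all genes by 0.05 and 0.06 on the log2 scale and changed the sign of no member.

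Without gene-poor blastomeres 100% of 4-cell blastomeres were above FPKM 1 for Aurkb, Aurkc, Incenp, Plk1, Plk4 and Mad2l1, and 100% of 8-cell blastomeres for Plk1. For Mad2l1 at the 8-cell stage the share was 100% at a threshold of 0.1 and with TPM-like scaling. Without the 6 8-cell blastomeres with the fewest genes, a setting chosen after seeing the data, it was 100% for Aurkc, Plk1, Plk4 and Bub1b. Pearson correlation gave a median of 0.48 over the pairs at the 4-cell stage, and 0.60 and 0.42 for Aurkb with Aurkc at the 4-cell and 8-cell stages. Without gene-poor blastomeres that pair was at 0.10 by Pearson and 0.14 by Spearman correlation at the 4-cell stage. With 1 blastomere left out, the median Spearman rho over the pairs was 0.042 (column S18 left out) to 0.18 at the 4-cell and 0.07 to 0.14 at the 8-cell stage. For Aurkb with Aurkc it was 0.16 to 0.33 and 0.22 to 0.39 (column S58 left out). The cause of these changes was not tested. Gene-poor blastomeres and the lack of molecular identifiers limit what a value at or near 0 can show.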
